A study of Mus musculus with 10 samples.

Results

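TALE homeobox genes encode transcription factors whose homeodomain carries an insertion of extra amino acids in the loop between its first helices. The 9 members described here were matched by symbol, and all 9 were found among the 56748 gene identifiers listed for each library and all 9 passed the filter on low counts. They are Meis1 (chromosome 11), Meis2 (chromosome 2) and Meis3 (chromosome 7) of the MEIS subfamily and Pbx2 (chromosome 17) and Pbx3 (chromosome 2) of the PBX subfamily, together with Pknox1 (chromosome 17), Pknox2 (chromosome 9) and the repressors Tgif1 (chromosome 17) and Tgif2 (chromosome 2). Gene-level RNA-seq counts came from cortex of mouse embryos at E12.5, with 5 libraries labelled Emx2 KO and 5 labelled WT. Emx2 is a homeobox transcription factor of the dorsal telencephalon. The labels give no strain, no description of the Emx2 allele and no statement on whether embryos were pooled or whether each library came from its own embryo. The p-values therefore set the genotype difference against the variation between these libraries only, which may include technical variation.

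MEIS and PKNOX proteins bind DNA together with PBX proteins, and PBX proteins are also cofactors of other homeodomain factors. PKNOX proteins occupy the same PBX surface as MEIS proteins and can compete with them. TGIF proteins lack the PBX-binding domain and act as corepressors of TGF-beta/SMAD and retinoid receptor signalling. In the mouse forebrain Meis2 is known for its expression in the lateral ganglionic eminence, the ventral neighbour of the cortex that produces striatal neurons, and Meis genes are known to respond to retinoic acid in many embryonic tissues. Mutations in human TGIF1 are associated with holoprosencephaly, a failure of forebrain division.

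Libraries held 9720840 to 35674113 counted reads and fell into 2 size classes of 5 libraries each. The larger class held 3 knockout and 2 wild-type libraries, and the smaller class 2 knockout and 3 wild-type libraries. Each sample title ends in a code (241022, 14922 or 31022) that the labels do not explain, and in every code both genotypes occur but never in the same size class. Transcripts of Emx2 itself stood at 146, 129, 108, 137 and 94.6 CPM (counts scaled to the TMM-adjusted library total) in the knockout libraries, against 208, 179, 175, 182 and 186 CPM in the wild-type libraries. Every knockout library lay below every wild-type library (log2 fold change -0.59 ± 0.11, SE, edgeR adjusted p = 0.00271). A count over the whole gene does not show how the allele alters it. The tissue label was checked on 12 genes of cortical cells. All 12 were present in every library, with Emx1 at 153 ± 15.7 CPM in knockout and 109 ± 5.96 CPM in wild type (SD, n = 5 each).

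Promoter windows of the members are shown first for the genes with larger or joint differences, to give the sequence that precedes their transcripts. RefSeq windows on GRCm38.p6, each covering 250 bases before and 50 bases after an annotated start, were matched for 6 of the 9 members, and no entry was matched for Pbx3, Pknox1 and Pknox2. Meis1 and Meis2 were both higher in the knockout, and Tgif1 was lower. Capitals mark the letters TGACAG or their reverse complement CTGTCA, the core bound by MEIS, PKNOX and TGIF proteins, and the letters ATTA or TAAT, the core shared by many homeodomain sites. The windows are Meis1 at chr11:19018920-19019219 (minus strand), Meis2 at chr2:116064570-116064869 (minus strand) and, of the 5 listed starts of Tgif1, chr17:70851161-70851460 (minus strand), 1 of the 2 that hold TGACAG or its reverse complement.
Meis1: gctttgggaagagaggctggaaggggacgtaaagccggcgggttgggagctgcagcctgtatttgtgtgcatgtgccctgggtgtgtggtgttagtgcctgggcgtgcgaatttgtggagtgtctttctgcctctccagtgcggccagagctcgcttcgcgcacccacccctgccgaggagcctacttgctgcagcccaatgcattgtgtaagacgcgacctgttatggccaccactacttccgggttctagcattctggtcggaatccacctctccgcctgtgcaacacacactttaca
Meis2: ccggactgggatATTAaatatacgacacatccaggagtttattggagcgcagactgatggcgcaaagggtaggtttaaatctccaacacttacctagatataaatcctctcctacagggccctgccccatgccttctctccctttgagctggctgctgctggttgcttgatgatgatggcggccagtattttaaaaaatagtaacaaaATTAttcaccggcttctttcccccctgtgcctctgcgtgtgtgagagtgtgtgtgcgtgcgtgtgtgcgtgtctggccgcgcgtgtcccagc
Tgif1: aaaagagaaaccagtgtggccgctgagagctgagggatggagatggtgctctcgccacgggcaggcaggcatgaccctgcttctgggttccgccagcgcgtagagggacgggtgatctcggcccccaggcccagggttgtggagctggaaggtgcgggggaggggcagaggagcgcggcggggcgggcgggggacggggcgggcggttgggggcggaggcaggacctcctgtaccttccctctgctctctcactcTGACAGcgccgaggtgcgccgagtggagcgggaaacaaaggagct
Searched on both strands, TGACAG was found in 2 of the 10 windows of the members, both of Tgif1, and in 19.2% of all 32851 windows of this length. ATTA was found in 3 of the 10, 1 of Meis2 and 2 of Tgif1, against 58.0% of all windows. The longer letters TGATTGAT, a composite site of PBX with other homeodomain proteins, and TAATTA, which contains ATTA, were in 0 of the 10 windows and in 0.746% and 5.29% of all windows. These matches describe the letters of 300 bases only.

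Of the 9 members, 5 rose, 1 fell and 3 did not pass the test in the knockout. Over all 18163 genes tested, 22.2% passed, 12.9% rose and 9.33% fell (edgeR quasi-likelihood test, adjusted p under 0.05). That split depended on scaling, with 2345 genes higher and 1694 lower under TMM but 1786 higher and 2464 lower with total counts alone, while the 6 members that passed did so in the same direction under both. Meis1, Pbx3, Meis2, Meis3 and Pbx2 rose, by 4.7-, 2.97-, 1.28-, 1.26- and 1.17-fold. Tgif1 fell to 0.559 of its wild-type level. Pknox1, Pknox2 and Tgif2 did not pass. In bulk tissue a change in the number of cells of a type and a change in RNA per cell cannot be told apart. The median log2 fold change of the members was 0.23, beside -0.01 for all genes tested. For 5 members the knockout and wild-type libraries did not overlap in CPM, and over all genes tested this held for 16.7%.

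**Figure D1:**
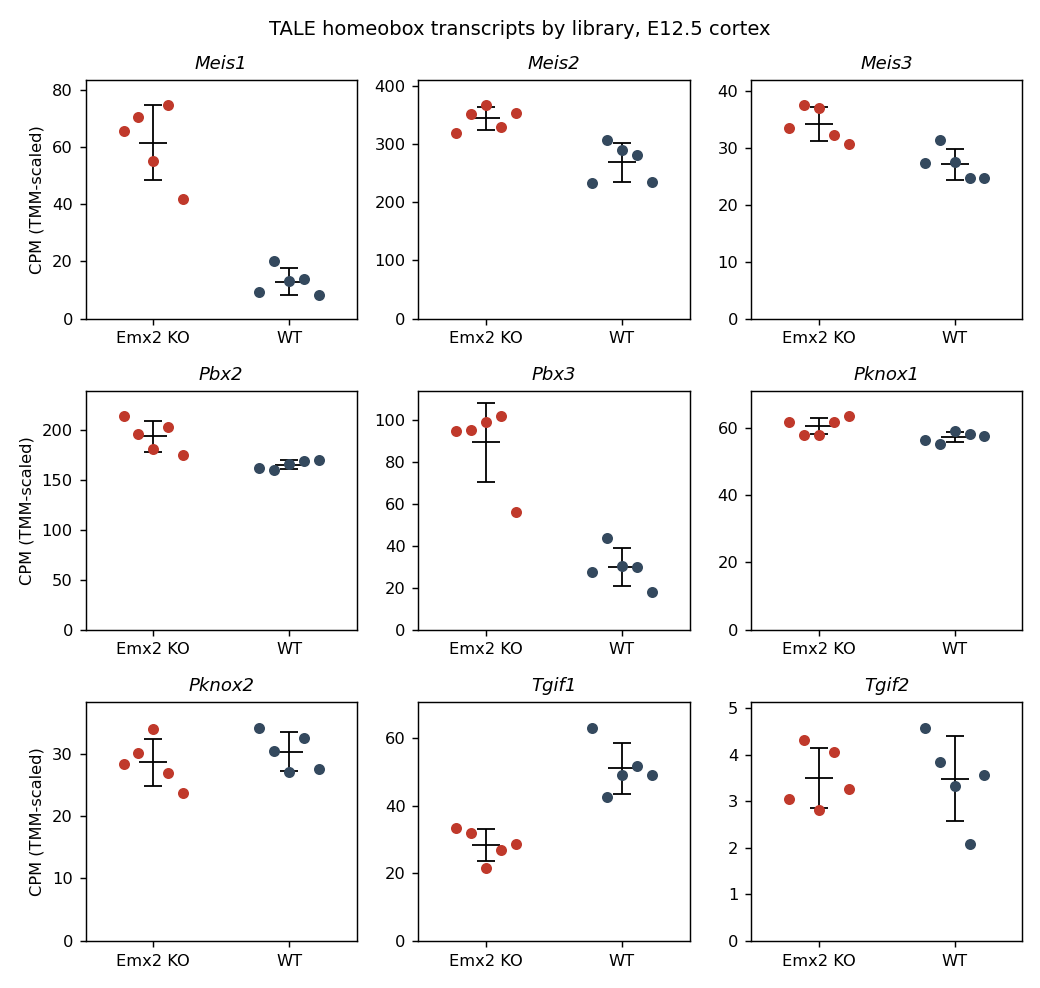
Each panel plots 1 TALE gene in CPM (vertical axis, from 0) for the 5 Emx2 KO libraries (red, left) and the 5 WT libraries (dark slate, right), with the mean and SD in black. Knockout points lie above all wild-type points for Meis1, Meis2, Pbx2 and Pbx3, below all of them for Tgif1, and among them for Meis3, Pknox1, Pknox2 and Tgif2.

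**Figure D2:**
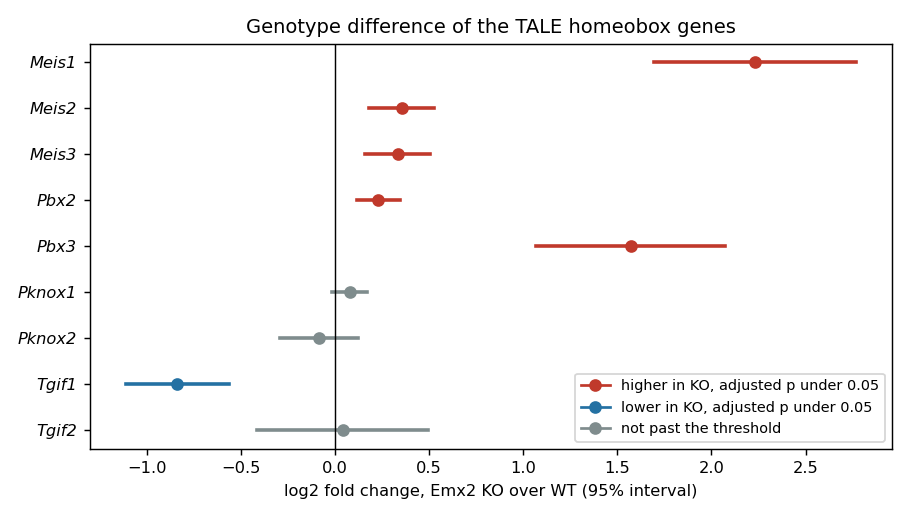
Log2 fold change of each gene, Emx2 KO over WT (horizontal axis), with its 95% interval from the edgeR fit, in red where the gene rose, blue where it fell and grey where it did not pass. The intervals of Meis1 and Pbx3 lie above 1, that of Tgif1 lies below 0, and those of Pknox1, Pknox2 and Tgif2 include 0.

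Meis1, a DNA-binding partner of PBX proteins best known from haematopoietic and limb development, differed more than any other member. It stood at 65.5, 70.6, 55.0, 74.6 and 41.95 CPM in the knockout libraries, against 9.41, 20.3, 13.2, 13.8 and 8.14 CPM in the wild-type libraries. The lowest knockout library, replicate 5, still lay well above the highest wild-type library, replicate 2. This gave a log2 fold change of 2.23 ± 0.24 (SE, edgeR adjusted p = 0.00017, 95% interval 1.70 to 2.77), larger in size than that of 99.5% of the genes tested. The counts behind it were 606 to 1996 reads per knockout library and 80 to 476 per wild-type library. An unclassified transcript on the same strand, Gm37818, shares 9.77% of the exon length of Meis1 and also rose (log2 fold change 2.2, edgeR adjusted p = 9.78e-05), but its count was at most 11.2% of that of Meis1 in any library. The antisense transcript Gm16140, which overlaps Meis1 exons, had 0 to 4 reads.

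Meis2, the most abundant of the MEIS genes per length, rose by a smaller amount. The knockout libraries held 318, 352, 366, 329 and 353 CPM, and the wild-type libraries 232, 306, 290, 280 and 234 CPM. The groups did not overlap, although the lowest knockout value (318, replicate 1) lay close to the highest wild-type value (306, replicate 2). The log2 fold change was 0.35 ± 0.08 (SE, edgeR adjusted p = 0.00708). Meis3, the remaining MEIS gene, averaged 34.1 ± 2.96 CPM in knockout and 27.1 ± 2.69 CPM in wild type (SD, n = 5 each). It rose by 0.33 ± 0.08 on the log2 scale (SE, edgeR adjusted p = 0.01). Its groups overlapped, since knockout replicate 5 (30.6 CPM) lay below wild-type replicate 2 (31.3 CPM).

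Within a library the balance of the MEIS genes differed between genotypes, and this ratio of raw counts does not depend on scaling. Meis1 had 0.119 to 0.227 reads for each read of Meis2 in the knockout libraries (mean 0.1805 ± 0.045, SD, n = 5) and 0.0348 to 0.0661 in the wild-type libraries (mean 0.0473 ± 0.012, n = 5). The ranges were separate. For Meis3 over Meis2 the ratio was 0.0994 ± 0.0078 in knockout and 0.102 ± 0.011 in wild type (SD, n = 5 each), with overlapping ranges.

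Pbx3, a PBX gene expressed in the developing ventral forebrain, was the other large increase. Knockout libraries stood at 94.5, 95.2, 98.8, 102 and 56.2 CPM, against 27.6, 43.7, 30.2, 30.1 and 17.9 CPM in the wild-type libraries. The first 4 knockout libraries lay close together, and replicate 5 stood well below them but above every wild-type library. Pbx3 rose by a log2 fold change of 1.57 ± 0.22 (SE, edgeR adjusted p = 0.000891, 95% interval 1.07 to 2.07), and 1.69 without knockout replicate 5. Pbx2, the broadly expressed PBX gene and the member with the highest level per length, rose by a small amount. The groups did not overlap, although the lowest knockout value (175 CPM) lay close to the highest wild-type value (170 CPM). Pbx2 stood at 213, 195, 181, 203 and 175 CPM in knockout, against 162, 159, 166, 169 and 170 CPM in wild type. The log2 fold change was 0.23 ± 0.05 (SE, edgeR adjusted p = 0.00756). Pbx2 shares 6.24% of its exon length with Gpsm3, whose counts were at most 1.91% of those of Pbx2. Per read of Pbx2 there were 0.321 to 0.547 reads of Pbx3 in knockout libraries and 0.106 to 0.274 in wild-type libraries, again without overlap.

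The PKNOX genes, which share the PBX partner with the MEIS genes, showed no difference past the threshold. Pknox1 averaged 60.5 ± 2.49 CPM in knockout and 57.3 ± 1.52 CPM in wild type (SD, n = 5 each). Its log2 fold change was 0.08, with a 95% interval of -0.01 to 0.17, which bounds any difference more tightly than for any other member (edgeR adjusted p = 0.222). Pknox2 averaged 28.6 ± 3.77 CPM in knockout and 30.3 ± 3.07 CPM in wild type. The interval of its log2 fold change ran from -0.29 to 0.12 (edgeR adjusted p = 0.595). Both intervals leave room for a small change, and neither includes a doubling or a halving.

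Tgif1 was the only member that fell. It stood at 33.4, 31.8, 21.5, 26.8 and 28.6 CPM in the knockout libraries, against 63.1, 42.6, 49.0, 51.8 and 49.0 CPM in the wild-type libraries. The groups did not overlap, and the highest knockout library (replicate 1) lay below the lowest wild-type library (replicate 2). Tgif1 had 6.63 to 10.96 reads for each read of Tgif2 in knockout libraries and 11.1 to 24.9 in wild-type libraries. The log2 fold change was -0.84 ± 0.12 (SE, edgeR adjusted p = 0.000659, 95% interval -1.11 to -0.57), larger in size than that of 94.6% of the genes tested. Tgif2, its close relative, was scarce, at 3.5 ± 0.649 CPM in knockout and 3.48 ± 0.914 CPM in wild type (SD, n = 5 each, 35 to 120 reads per library). The 95% interval of its log2 fold change, -0.41 to 0.50, is wide (edgeR adjusted p = 0.926). Its value is also uncertain in kind, because 56.65% of its exon length overlaps 5430405H02Rik on the opposite strand. That transcript had 355% to 524% of the reads of Tgif2 in each library, and whether counting used the strand is not known from the labels. How the counting handled any reads shared with annotated pseudogenes of Tgif1 and Tgif2 is not given either, and of these pseudogenes Tgif2-ps2 had 4 to 206 reads.

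Per kilobase of exon, the order of the members differed between the genotypes. In the knockout the order was Pbx2 (53.1 CPM per kilobase), Meis2 (28.5), Pbx3 (14.6), Meis3 (10.8), Pknox1 (8.73), Meis1 (5.84), Tgif1 (5.06), Pknox2 (2.77) and Tgif2 (0.913). In wild type it was Pbx2 (45.3 CPM per kilobase), Meis2 (22.3), Tgif1 (9.09), Meis3 (8.54), Pknox1 (8.26), Pbx3 (4.90), Pknox2 (2.93), Meis1 (1.23) and Tgif2 (0.908). Pbx3 thus held rank 3 in knockout and 6 in wild type, Meis1 rank 6 in knockout and 8 in wild type, and Tgif1 rank 7 in knockout and 3 in wild type. Not all neighbours in these orders were separate. In knockout the ranges of Pbx3 and Meis3 overlapped, as did those of Meis1 and Tgif1. In wild type those of Tgif1, Meis3 and Pknox1 overlapped, as did those of Pbx3 and Pknox2 and those of Meis1 and Tgif2. Lengths are of all annotated exons of a gene, so a level per length is a coarse measure where a gene has several isoforms.

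**Figure D3:**
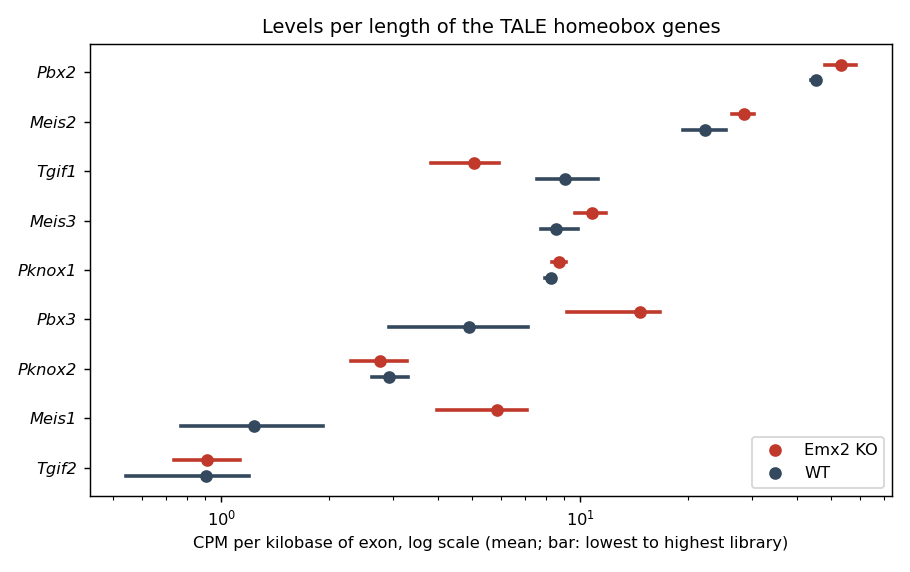
Level of each gene in CPM per kilobase of exon (horizontal log axis), as the mean (dot) and the lowest to highest library (bar), for Emx2 KO (red, upper) and WT (dark slate, lower). Pbx2 and Meis2 lead in both genotypes, while Meis1 and Pbx3 lie to the right and Tgif1 to the left in the knockout.

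Because the size classes were unevenly spread over the genotypes and the title codes are not explained, the differences were also taken within each. Every title code held as many knockout as wild-type libraries. For Meis1 the log2 ratio of mean CPM, knockout over wild type, was 2.38 in the larger and 1.94 in the smaller libraries, and 2.2, 1.84 and 3.2 in codes 241022, 14922 and 31022, the last with 1 library of each genotype. For Pbx3 these values were 1.69 and 1.38 by size, and 1.41, 1.36 and 2.50 by code. For Tgif1 they were -0.71 and -1.04 by size, and -0.70, -1.01 and -0.87 by code. Meis2 (0.22 and 0.48 by size), Meis3 (0.40 and 0.28) and Pbx2 (0.29 and 0.12) kept their direction too. Tgif2 did not, at 0.49 in the larger and -0.40 in the smaller libraries. All 6 members called with all libraries passed in the larger libraries alone, where 3296 genes passed in all. In the smaller ones alone 626 genes passed the edgeR test after adjustment, and 0 of these were members. There 4 members had an unadjusted p under 0.05 and 3 passed DESeq2. The difference of the genotype effect between codes 241022 and 14922 was tested as an interaction in 8 libraries, and 0 of 9 members passed, beside 1.53% of 18431 genes. Only Pbx2 had an unadjusted p under 0.05 there (interaction -0.27 ± 0.09, SE, unadjusted p = 0.0141, edgeR adjusted p = 0.447), and DESeq2 was not run on it. In these 8 libraries the knockout libraries were the larger ones in code 241022 and the smaller ones in code 14922. This interaction therefore cannot be told apart from a difference between the size classes that is shared by both genotypes.

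Deviations of the members from their genotype mean were compared over the 10 libraries as a description. Meis1 and Pbx3 deviated together most closely of the member pairs (Pearson r 0.907, Spearman rho 0.842). Both were lowest among knockout libraries in replicate 5 and highest among wild-type libraries in replicate 2. Among 11180 other protein-coding genes of at least 5 CPM, those most like Meis1 were Syt6 (r 0.956, rho 0.927), Lrrc4 (r 0.945, rho 0.903) and Ptpn9 (r 0.938, rho 0.891), and all 3 rose in the knockout. Most like Pbx3 were the POU homeobox gene Pou3f4 (r 0.962, rho 0.782), Ptpn9 (r 0.941, rho 0.770) and Ttpal (r 0.937, rho 0.806). Most like Meis2 were Clstn2 (r 0.986, rho 0.976), Sema4f (r 0.977, rho 0.964) and Islr2 (r 0.974, rho 0.976). For Meis3 they were B230217C12Rik (r 0.956, rho 0.964), Tigd5 (r 0.942, rho 0.915) and Tmtc2 (r 0.941, rho 0.952), and for Pbx2 they were Mrfap1 (r 0.951, rho 0.903), Bsg (r 0.949, rho 0.915) and Tpm1 (r 0.939, rho 0.879). Most like Tgif1 were Dctd (r 0.967, rho 0.818), Slc16a1 (r 0.961, rho 0.903) and Large2 (r 0.959, rho 0.927). Being alike in deviation did not always go with a genotype difference. Clstn2, Ttpal, B230217C12Rik, Mrfap1, Bsg, Tpm1, Dctd and Large2 did not pass the test of genotype. The 10 points share libraries, depth and tissue content, and the genes were picked as the most alike of many.

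Genes of the ventral telencephalon, where Meis2 and Pbx3 are also expressed, moved in the same direction as the MEIS and PBX genes. Of 24 listed genes 21 were tested, of which 12 rose and 0 fell (0 at an unadjusted p under 0.05 and 0 by DESeq2), with a median log2 fold change of 1.29. Among those that rose were Foxp2 (57.7 ± 6.20 CPM in knockout, 33.15 ± 4.48 CPM in wild type, SD, n = 5 each), Foxp1 (98.8 ± 7.32 CPM in knockout, 71.3 ± 7.21 CPM in wild type), Ebf1 (29.5 ± 3.93 CPM in knockout, 16.3 ± 3.15 CPM in wild type) and the progenitor gene Gsx2 (10.96 ± 4.57 CPM in knockout, 2.99 ± 1.16 CPM in wild type), all transcription factors. Counts of this list were 9 to 16 when single libraries were left out. Its summed level was 421 to 1045 CPM in knockout and 296 to 517 CPM in wild type, and these ranges overlapped. In wild type 10 of the 24 genes averaged at least 10 CPM, so the list is not absent from the control tissue. Gsx1 and Lhx8 were at 0 in 1 library of each genotype and Tac1 in 1 wild-type library. The ventral sum was 421 CPM in knockout replicate 5 and 517 CPM in wild-type replicate 2. Meis1 stood at 41.95 and 20.3 CPM in these libraries, Pbx3 at 56.2 and 43.7 CPM, and Tgif1 at 28.6 and 42.6 CPM. Knockout replicate 3 had the highest ventral sum (1045 CPM), with Meis1 at 55.0 CPM, Pbx3 at 98.8 CPM and Tgif1 at 21.5 CPM. Wild-type replicate 5 had the lowest ventral sum (296 CPM), with Meis1 at 8.14 CPM, Pbx3 at 17.9 CPM and Tgif1 at 49.0 CPM. These are values of single libraries, and a sum over listed genes is not a measure of tissue content. The part of ventral tissue in the differences was not tested.

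**Figure D4:**
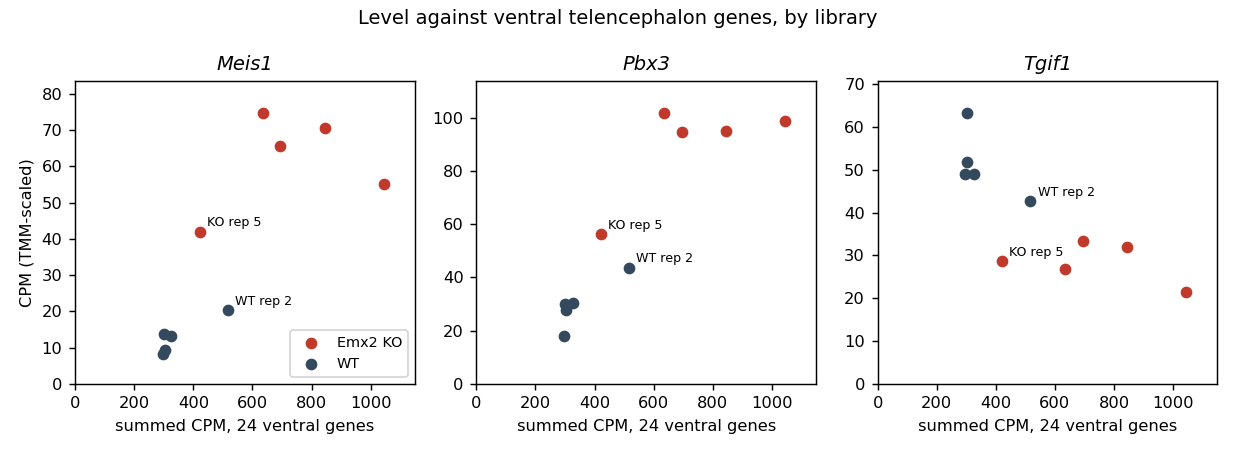
Level of Meis1, Pbx3 and Tgif1 (vertical axes, CPM) against the summed CPM of 24 ventral telencephalon genes (horizontal axis) in each Emx2 KO (red) and WT (dark slate) library. Labels mark knockout replicate 5 and wild-type replicate 2.

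Markers of other cells were read in the same way, beside the 12.9% of all genes tested that rose and the 9.33% that fell. Of 12 neuron genes 5 rose and 0 fell (0 at an unadjusted p under 0.05 and 0 by DESeq2), among them Tubb3 (log2 fold change 0.64, edgeR adjusted p = 0.000291), and their summed level was 4168 to 5637 CPM in knockout and 2767 to 4325 CPM in wild type. The number that rose was 8 without wild-type replicate 2, 3 without knockout replicate 2 or 3 or wild-type replicate 4, and 2 without wild-type replicate 5. Of 9 tested choroid plexus genes 7 fell, among them the transthyretin gene Ttr (2.55 ± 1.41 CPM in knockout, 116 ± 17.9 CPM in wild type, SD, n = 5 each), with sums of 58.4 to 94.0 CPM in knockout and 256 to 312 CPM in wild type, separate ranges in the direction of Tgif1. Of 10 meningeal and mesenchymal genes 0 rose (0 at an unadjusted p under 0.05 and 0 by DESeq2) and 2 fell, with sums of 619 to 854 CPM in knockout and 599 to 848 CPM in wild type. Of 10 tested diencephalic genes 2 rose and 1 fell, with sums of 110 to 175 CPM in knockout and 130 to 240 CPM in wild type. At an unadjusted p under 0.05, 2 of these were higher and 3 lower, and by DESeq2 2 were higher and 4 lower. The edgeR test called 0 of 8 endothelial genes (4 lower at an unadjusted p under 0.05, 0 by DESeq2), 0 of 8 blood genes (1 higher at an unadjusted p under 0.05, 0 by DESeq2) and 0 of 8 microglial genes (1 lower at an unadjusted p under 0.05, 1 by DESeq2). The part of neurons and choroid plexus in the differences of the TALE genes was not tested.

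Among partners of the TALE factors the changes were small. Of 15 listed partner and TGF-beta pathway genes 3 rose, 1 fell and 11 did not pass, with a median log2 fold change of -0.01. Among all genes tested 22.2% passed (12.9% rose and 9.33% fell), and no set test was run on the partners. Ctbp1, which encodes a corepressor that TGIF1 recruits, rose to 336 ± 7.73 CPM in knockout, against 266 ± 18.8 CPM in WT libraries (SD, n = 5 each, log2 fold change 0.34, edgeR adjusted p = 0.000358). Its relative Ctbp2 rose to 108 ± 4.28 CPM in knockout, against 93.6 ± 1.6 CPM in WT libraries (SD, n = 5 each, log2 fold change 0.21, edgeR adjusted p = 0.00159). Ski, a SMAD corepressor, rose by 0.16 on the log2 scale, and the nuclear receptor corepressor gene Ncor1 fell by 0.15. The summed level of all 15 was 2183 to 2202 CPM in knockout and 2092 to 2145 CPM in wild type.

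Retinoic acid genes, relevant to Meis regulation and to TGIF as a corepressor, moved in both directions. Of 14 tested genes 3 rose, 1 fell and 10 did not pass, where 12.9% of all genes tested rose and 9.33% fell. No set test was run on this list. Among those that rose were the receptor genes Rxra (log2 fold change 0.40, edgeR adjusted p = 0.00405) and Rxrb (log2 fold change 0.21, edgeR adjusted p = 0.00211). The retinoic acid-synthesizing enzyme gene Aldh1a2 fell to 1.49 ± 0.235 CPM in knockout, against 2.665 ± 0.38 CPM in WT libraries (SD, n = 5 each, log2 fold change -0.85, edgeR adjusted p = 0.00404).

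Of 7 further TALE genes, Pbx4 and the Iroquois genes Irx1 to Irx6, only 3 had enough reads to be tested. Pbx4 was at 11.2 ± 2.74 CPM in knockout and 12.1 ± 2.25 CPM in wild type and did not pass (SD, n = 5 each, log2 fold change -0.12, edgeR adjusted p = 0.691). Irx3 did not pass either (-0.59). Irx5 fell, at 0.185 ± 0.081 CPM in knockout and 1.46 ± 0.443 CPM in wild type (log2 fold change -2.91, edgeR adjusted p = 0.000195), the level of a gene with at most 43 reads in a library.

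**Figure D5:**
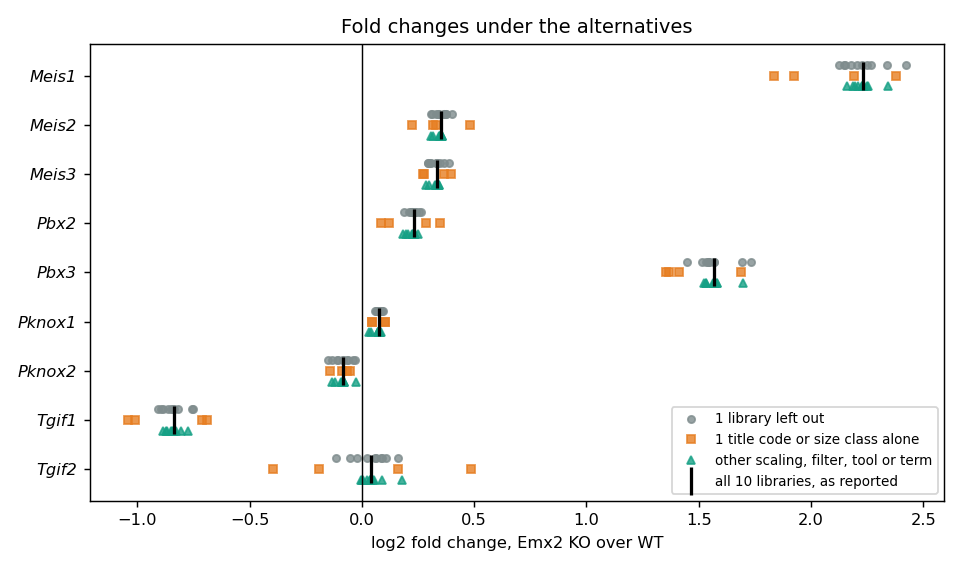
Log2 fold change of each gene, Emx2 KO over WT (horizontal axis), with all 10 libraries (black bars), with 1 library left out (grey circles), within 1 title code or size class (orange squares) and under other scalings, filters, tools or added terms (green triangles). All points of Meis1, Meis2, Meis3, Pbx2 and Pbx3 lie above 0 and all of Tgif1 below 0, while those of Tgif2 lie on both sides.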

How the data were processed

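RNA-seq counts per gene were read for 10 libraries of E12.5 mouse cortex, 5 Emx2 KO and 5 WT. The authors deposited unnormalized read counts for each Ensembl gene. The submitters' processing notes name the builds GRCm39 and rn6 and, as tools, featureCounts 1.6.3-p1, STAR 2.7.8a and bcl2fastq 2.20. Parameters, strand setting and annotation release are not given in the sources used here. Names came from a table of gene identifiers (52073 of 56748 matched), and exon lengths, overlaps and biotypes from GENCODE for GRCm38.

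Low-count genes were removed by filterByExpr in edgeR (minimum count 10, leaving 18163 genes), and counts were scaled by TMM and tested with edgeR 4.0.16 (R 4.3.3; quasi-likelihood F test, robust dispersion, genotype only, two-sided). P-values were Benjamini-Hochberg adjusted across every tested gene, and 0.05 was the threshold. Robust dispersion was chosen after both fits had been seen, to match an earlier processing of these data: it called 4039 genes, against 4074 without it, and the same 6 members in both. CPM used TMM-scaled totals. Standard errors came from the F statistic. No libraries were merged, since each pair within a genotype differed beyond counting error (chi-square over genes, per gene, 8.89 to 23.9). Limma-voom (limma 3.58.1), DESeq2 1.42.0, other scalings and filters, title code and size class, and single libraries left out were alternatives. The fit was tested on simulated data. It missed many of the smallest changes put in, narrowly failing the recovery first asked for these, and the criterion was then replaced by one on larger changes, fold-change error and false calls. A gene that did not pass may therefore still differ by a small amount. The members and lists were chosen with earlier results of these data known. Named genes were the members, Emx2, those of each list with the smallest p, and the 3 protein-coding genes most alike in deviation to each called member of at least 5 CPM. Pbx4, Irx3 and the transcripts overlapping members were named after their values were seen. Some genes that the rule would name are not reported here.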

Additional observations from a re-analysis of the deposited data

Results flagged for a closer look

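In 1 of 18 groups of 5 libraries (9 members, each genotype), an extreme value was separated from its nearest neighbour by an unusually large share of the group's range (over 0.710), and chance gives about 1 in 20. Knockout replicate 5 was the lowest for Pbx3 (share 0.843), at 56.2 CPM against 94.5 CPM in the next knockout library. It was also the lowest knockout library for Meis1, Meis3, Pbx2 and Pknox2, where the gap did not reach the same limit. Without it the log2 fold change of Pbx3 was 1.69, against 1.57 with it.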

How the results depend on the processing

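No paired analysis was possible because replicate numbers follow accession order and link no knockout library to a wild-type one. Each result was refitted under 25 alternatives. The 6 called members (Meis1, Meis2, Meis3, Pbx2, Pbx3, Tgif1) kept their direction in all 25, and all 6 were called in every fit that left out 1 library, under each scaling, filter and tool, with title code or size class as a block, in the larger libraries alone, and in the fits without robust dispersion or with Y-linked expression as a covariate. The fits without robust dispersion and with the covariate were chosen after seeing the data. Fewer passed in either title code alone and in the smaller libraries alone, and the cause was not tested. With title code 241022 alone, 530 genes and 1 member were called. Values were 2.19 for Meis1, 0.32 for Meis2, 0.27 for Meis3, 0.35 for Pbx2 and -0.69 for Tgif1 (edgeR adjusted p = 0.0691, 0.31, 0.293, 0.0735 and 0.135). With code 14922 alone, 1710 genes and 3 members were called, and Meis3 (0.36), Pbx2 (0.0836) and Pbx3 (1.35) did not pass. In the smaller libraries alone, 626 genes and 0 members were called by edgeR (4 at an unadjusted p under 0.05, 3 by DESeq2), with 1.92 for Meis1, 0.48 for Meis2, 0.28 for Meis3, 0.12 for Pbx2, 1.37 for Pbx3 and -1.04 for Tgif1. Tgif2, never called, changed sign with total counts alone (-0.00586), code 241022 alone (-0.19) and the smaller libraries alone (-0.40), and ranged from -0.12 to 0.16 with single libraries left out. It was below 0 without knockout replicate 2 or 4 or wild-type replicate 4. The cause was not tested. Upper-quartile scaling called 1899 genes higher and 2245 lower and total counts alone 1786 and 2464, against 2345 and 1694 with TMM. Tgif2, with 35 to 120 reads per library, is the member that depth limits most.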
